A study of Rattus norvegicus with 6 samples.

Results

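The genes examined here encode the proteins of the cytosolic ribosome. They were taken from the count tables by their symbols: every gene named Rpl, Rplp, Rps or Rpsa with its number, leaving out the Rps6k kinases. The rule gave 82 of the 17327 genes in the files, 49 of the large subunit and 33 of the small subunit. Of these, 77 are core ribosomal protein genes, and 5 are paralogues of a core gene (Rpl22l1, Rpl39l, Rpl3l, Rps27l and Rps4y2). The samples are primary Schwann cells, the myelin-forming glia of peripheral nerve, isolated from adult Wistar rats. Confluent cultures were held for 18 h in a starving medium with 2% serum and 10 µM forskolin, an activator of adenylate cyclase. Then 3 cultures received 10 nM recombinant soluble NRG1β1 for 6 h, and 3 mock cultures received the same volume of buffer with albumin. NRG1 (neuregulin 1) is the axonal growth factor that acts on the ErbB2/ErbB3 receptors of Schwann cells. Forskolin was therefore present in both groups, and both had been expanded before starvation in medium that held recombinant NRG1β1 itself, named glial growth factor in the labels, at a somewhat lower concentration. The 3 mock and 3 NRG1 samples came from 3 independent experiments, which the labels number 1 to 3.

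A ribosome is assembled in the nucleolus from ribosomal RNAs and a copy of each ribosomal protein, and its subunits are then exported to the cytoplasm. Most vertebrate ribosomal protein mRNAs begin with a 5′ terminal oligopyrimidine (TOP) tract, a C followed by a run of C and T, through which growth factor signalling by way of mTORC1 governs their translation. The mRNA level measured by RNA-seq therefore does not give the rate at which the protein is made. In Schwann cells, NRG1 signalling drives survival, proliferation and myelination, all of which draw on protein synthesis.

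The 6 libraries held between 6821590 and 15475018 counts on genes. All 9 Schwann cell markers searched, among them Sox10 and S100b, were above 1 CPM, the count scaled to the gene counts of the library, in every sample. Replicate 1 stood apart from the others in both groups. The fibroblast gene Dcn had 4574 counts in mock 1 and 3203 in NRG1 1 and 0 in the other 4 samples, and Thy1 had 9493 and 8576 counts against 0. The summed level of the 6 fibroblast markers lay at 13881 to 30166 CPM in mock and 13493 to 33368 CPM in NRG1, nearly all of it Col1a1, and that of the Schwann cell markers at 6899 to 18445 and 5033 to 13709 CPM. Of the 5 macrophage, 4 endothelial, 3 muscle and 4 neuronal markers, 1 of each list was above 1 CPM in every sample: Cd68 at 1.95 to 3.68 CPM, Tek at 5.67 to 14.7 CPM, Myh1 at 3.73 to 10.5 CPM and Tubb3 at 19.9 to 53.6 CPM. The summed levels in mock and NRG1 were 3.29 to 10.0 and 3.73 to 7.99 CPM for macrophages, 9.09 to 14.8 and 5.80 to 8.93 CPM for endothelium, 6.16 to 12.2 and 4.52 to 13.5 CPM for muscle, and 29.03 to 49.11 and 19.9 to 54.7 CPM for neurons. The defining markers Ptprc, Pecam1, Cdh5 and Rbfox3 were at 0 in every sample. A 0 here is a count and does not show absence, since 4 ribosomal protein genes named below were also at 0. The part of this difference between cultures in the results below was not tested. The calls and the median of the members are also given without pair 1, while most other results include it. In bulk samples, more RNA per cell and more cells of a type cannot be told apart.

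After NRG1, most ribosomal protein mRNAs were higher by a small amount. Of the 82 genes, 71 had enough counts to be tested, and 69 of these 71 (97.2%) had a positive log2 fold change after NRG1, against 47.2% of the 9740 genes tested in all. Their median log2 fold change was 0.41, with quartiles of 0.24 and 0.58, against a median of -0.03 over all genes tested. The changes of single genes were mostly too small to call. In edgeR's quasi-likelihood test, blocked by replicate number and with Benjamini-Hochberg adjustment over all genes, 9 members passed an adjusted p of 0.01 as up-regulated (12.7% of those tested, against 6.31% of all genes). These were Rpl18, Rpl27, Rpl28, Rpl31, Rpl32, Rplp1, Rps2, Rps21 and Rps25. Only its NRG1 samples gave Rpl32 enough counts to be tested. No member was down-regulated, against 5.51% of all genes. No member with a negative log2 fold change had an unadjusted p under 0.05 by this test. At an adjusted p of at most 0.05, 29 members were higher (40.8%, against 11.5%) and 0 lower (against 11.7%). With the further demand of a log2 fold change over 1, the up-regulated members were Rpl31, Rpl32 and Rps2 (4.23%, against 1.56%), and 0 were below -1 (against 1.91%). In 22 members (31%, against 9%) every NRG1 sample was above every mock sample, and in 0 (against 10.2%) every one was below. Without the block, 0 members and 0 of all 9740 genes passed in either direction. The members' smallest adjusted p in that edgeR fit was 0.163, with 19 members at an unadjusted p under 0.05, and their median was 0.42. DESeq2 with the block called 8 higher (11.6%, against 5.77%), of which 5 were among the 9.

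**Figure D1:**
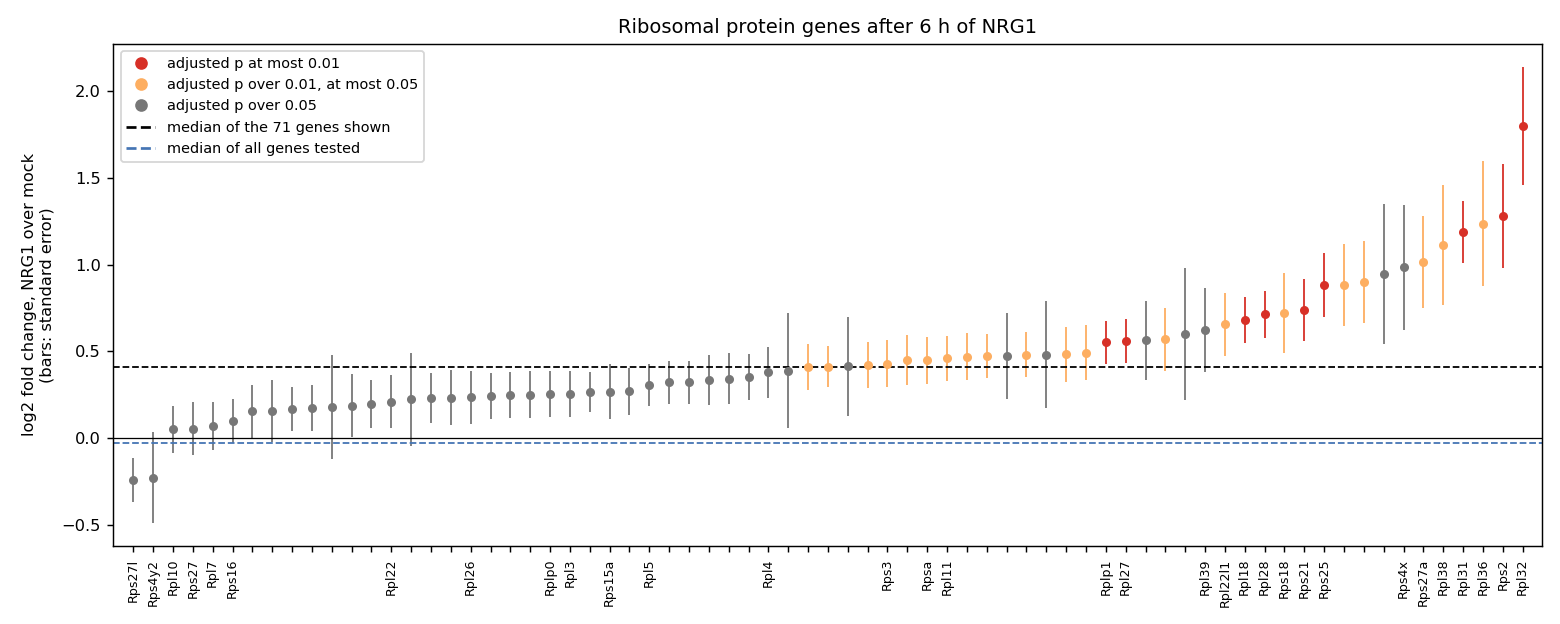
Log2 fold change of NRG1 over mock for each of the 71 ribosomal protein genes tested, with bars for the standard error; red marks the genes past an adjusted p of 0.01 and orange those past 0.05, and only some genes are labelled. The values run from -0.24 to 1.80, and 69 of 71 lie above 0.

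Both subunits had near-equal medians. For the 42 large subunit genes tested the median log2 fold change was 0.40, with all 42 positive and 6 up-regulated (14.3%, against 6.31% of all genes). For the 29 small subunit genes it was 0.41, with 27 positive and 3 up-regulated (10.3%). The genes that are mutated in Diamond-Blackfan anaemia, an inherited failure of red cell production, had a median of 0.37 over the 16 of 19 that were tested. The 3 of them that were called (18.8%, against 6.31% of all genes) were Rpl18, Rpl27 and Rpl31. Genes with few counts carried the higher fold changes. Among the 28 members with a mean count of at least 1000 the median was 0.32, against 0.05 over all genes of that range, and 3 were called (10.7%, against 10.1%), a share near the background. The 24 members with a mean count between 100 and 1000 had a median of 0.34, against -0.02, and 4 were called (16.7%, against 6.38%). The 19 with a mean count under 100 had a median of 0.72, against -0.21, but a median standard error of 0.28. Of these low genes, 7 (Rpl32, Rpl36, Rpl36a, Rpl38, Rps13, Rps14 and Rps4x) reached the count cut-off in fewer than 3 mock samples. They were thus tested partly through their NRG1 counts, and Rpl32 and Rpl36a, with 0 such mock samples, only through them.

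The size of the increase varied between experiments. NRG1 was above mock in 57 of 71 members in pair 1, 71 of 71 in pair 2 and 54 of 71 in pair 3, against 46.2%, 47.6% and 49% of all genes tested. The members' median log2 ratio was 0.26, 0.68 and 0.24 in pairs 1, 2 and 3, while the median of all genes was -0.03, -0.03 and -0.01. NRG1 sample 2 was the highest of the 6 samples for 62 of the 71 members, and for 20.3% of all genes tested. The direction was shared by the 3 pairs in 46 members (64.8%, against 25.9% of all genes) for higher and in 0 (against 30%) for lower. Without pair 2, 4 members were called (Rpl18, Rpl28, Rpl31 and Rpl32), which is 5.56% against 5.07% of all genes and so near the background, while the median was 0.27 and 61 of 72 members were positive. Without pair 1, the pair with fibroblast markers, 10 were called (13.9%, against 5.94% of all genes), 6 of them among the 9, the median was 0.46 and 70 of 72 were positive. Without pair 3, 6 were called (8.45%, against 4.02%) and the median was 0.49. Rpl18, Rpl28 and Rpl31 were called in all 3 of these fits.

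**Figure D2:**
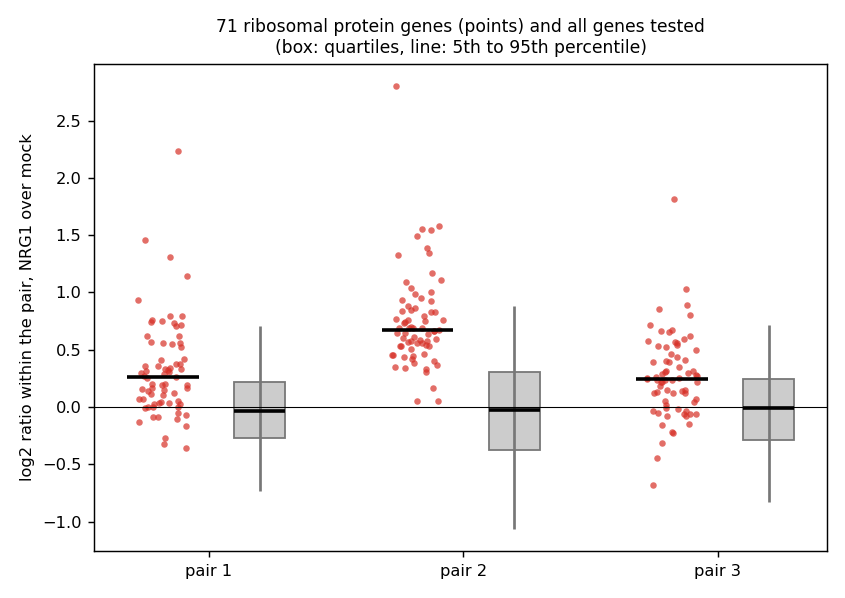
Log2 ratio of NRG1 over mock within each pair for the 71 ribosomal protein genes tested (points) beside all 9740 genes tested (box: quartiles, line: 5th to 95th percentile). The members lie highest in pair 2, where 71 of 71 are above 0, and around 0.26 and 0.24 in pairs 1 and 3.

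The members together took a small and variable part of the library. Their share of gene counts was 0.979, 0.979 and 0.917% in mock samples 1 to 3 and 1.14, 1.51 and 0.991% in NRG1 samples 1 to 3. Each NRG1 sample was above its own mock and above every mock sample, by 1.16, 1.54 and 1.08 times in the 3 pairs. The means were 0.958% ± 0.036 (SD, n = 3) and 1.21% ± 0.266 (SD, n = 3), and the exact paired permutation test, two-sided, gave p = 0.25, the smallest that 3 pairs allow. The alignments that the authors' counting left unassigned because they fitted several places moved the same way, at 24.5, 26.1 and 28.7% of the entries in the count files in mock and 26.4, 28.9 and 29.9% in NRG1. Counted with these and the ambiguous alignments in the denominator, the members' share was 0.619% ± 0.0429 in mock and 0.763% ± 0.168 in NRG1 (SD, n = 3). NRG1 was then still above mock in each pair, by 1.14, 1.49 and 1.06 times, but NRG1 sample 3, at 0.605%, lay below mock samples 1 and 2, at 0.654 and 0.631%.

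The genes that rose are described first. Rpl31, a large subunit protein at the rim of the tunnel through which the nascent chain leaves, had 7.15, 9.24 and 7.87 CPM in mock samples 1 to 3 and 17.9, 24.9 and 14.2 CPM in NRG1 samples 1 to 3. All NRG1 values lay well above all mock values, and the log2 fold change was 1.19 ± 0.18 (SE), with an adjusted p of 0.000396 in edgeR. Rpl32, another large subunit protein, had the highest fold change of all members but few reads, with 7, 8 and 10 counts in mock and 22, 33 and 51 in NRG1. Its groups did not overlap, and its log2 fold change was 1.80 ± 0.34 (edgeR adjusted p = 0.00185). No mock sample reached the count cut-off, so Rpl32 entered the test only through the NRG1 samples in which it was high. Rpl28, a large subunit protein that bacteria lack, had 99.8, 117.6 and 106.7 CPM in mock and 142.5, 254.7 and 151.3 CPM in NRG1. The groups were separate, with NRG1 sample 2 far above the other 2, and the log2 fold change was 0.71 ± 0.14 (edgeR adjusted p = 0.00189). Rpl18, one of the large subunit proteins altered in Diamond-Blackfan anaemia, had 189.7, 235.7 and 243.4 CPM in mock and 310.1, 457.1 and 314.1 CPM in NRG1. Here too no NRG1 value reached down to a mock value, and the log2 fold change was 0.68 ± 0.13 (edgeR adjusted p = 0.00214).

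Rplp1, an acidic protein of the stalk that recruits translation factors to the ribosome, was the most even of the called genes in mock, at 131.1, 129.1 and 131.9 CPM. In NRG1 it stood at 200.2, 211.6 and 165.2 CPM, above mock in every sample, and its log2 fold change was 0.55 ± 0.12 (edgeR adjusted p = 0.00502). Rpl27, a large subunit protein, had 73.8, 73.7 and 61.3 CPM in mock and 107.3, 133.3 and 74.3 CPM in NRG1. Its NRG1 sample 3 lay barely above mock sample 1, and the log2 fold change was 0.56 ± 0.13 (edgeR adjusted p = 0.00642). Rps25, a small subunit protein that several viral internal ribosome entry sites depend on, had 7.93, 10.6 and 4.01 CPM in mock and 13.3, 20.9 and 7.50 CPM in NRG1. Rps21, a small subunit protein, had 10.3, 11.4 and 5.46 CPM in mock and 17.3, 21.6 and 7.82 CPM in NRG1. For both genes the groups overlapped, because sample 3 was low in both groups, but each pair moved up, with log2 fold changes of 0.88 ± 0.18 and 0.74 ± 0.18 and edgeR adjusted p of 0.00365 and 0.00858.

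Rps2, a small subunit protein near the entry of the mRNA channel, rested mostly on pair 2. It had 57.9, 13.3 and 84.5 CPM in mock and 127.3, 95.7 and 100.5 CPM in NRG1. The NRG1 samples were close to each other, while mock sample 2, with 91 counts, was far below the other mock samples. The log2 ratios of the pairs were 1.14, 2.80 and 0.28, and the fitted log2 fold change was 1.28 ± 0.30 (edgeR adjusted p = 0.00702). Without pair 2 it was 0.69 and the adjusted p 0.0103. DESeq2 with the block gave Rps2 an adjusted p of 0.157, and Rpl32, Rps25 and Rps21 also missed the threshold there, with adjusted p of 0.0297, 0.0179 and 0.0429.

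**Figure D3:**
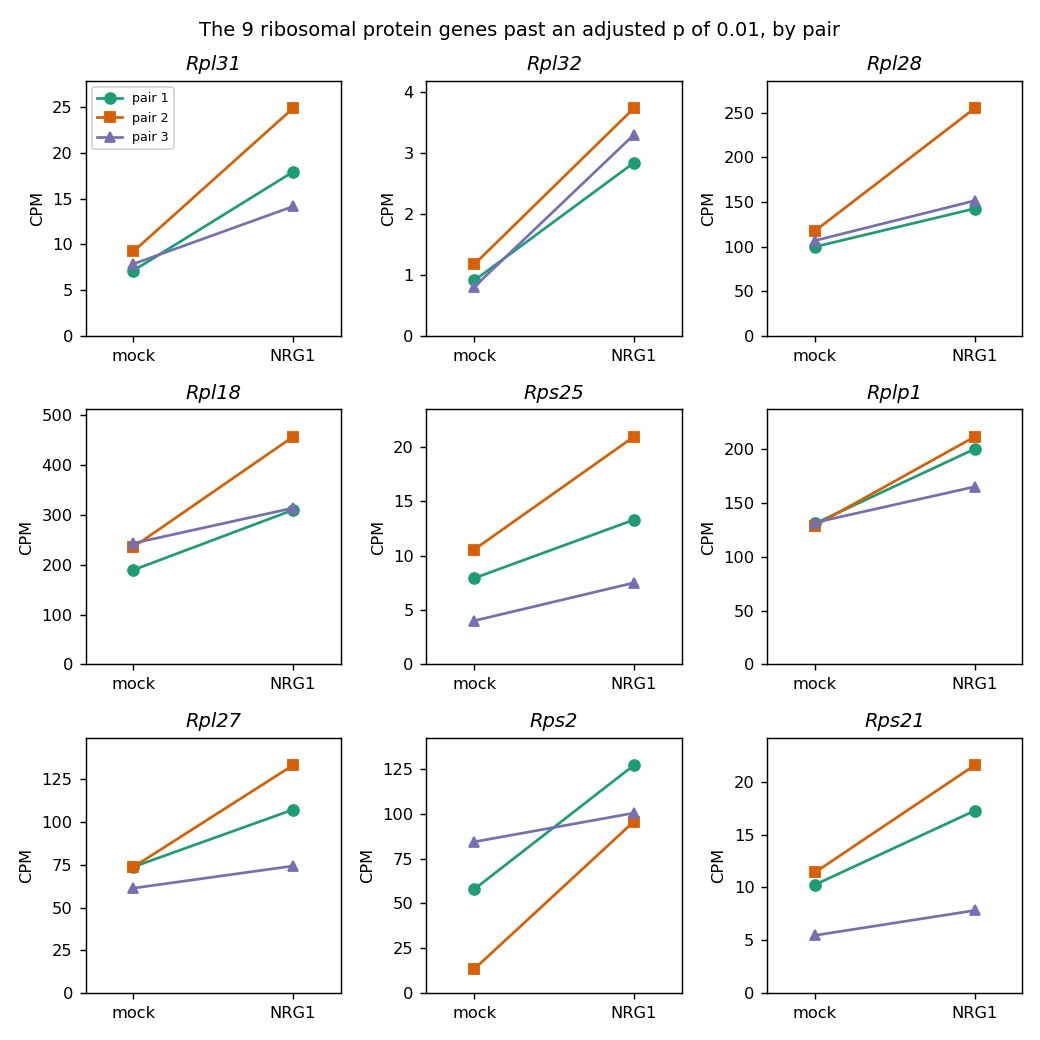
CPM of the 9 ribosomal protein genes past an adjusted p of 0.01, with each line joining the mock and the NRG1 sample of a pair; each axis starts at 0. Every line rises, steepest in pair 2 for most genes, and Rps2 starts from a single low mock sample.

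Most members with a promoter sequence had a run of C and T near the annotated start. The RefSeq promoter table for the GRCr8 assembly, a later build than the rn5 used for the counts, held 66 of the 82 genes. Within 25 bases on each side of the annotated start, 52 of 66 (78.8%) had a run of at least 8 C or T on the strand of the gene, against 19.3% of all 27457 genes in the table, and the median longest run was 10 bases against 5. The letters CTTTC were found on the strand of the gene in 32 of 66 (48.5%, against 6.51%) and on the other strand in 1.52% (against 6.27%). CTTCC, which can overlap it, was found on the strand of the gene in 37.9% (against 10.3%) and on the other strand in 10.6% (against 11.2%). The first annotated base was C or T in 69.7% (against 39.6%). A match describes these letters only, and the start used in Schwann cells was not measured. Below are the 10 bases before and the 20 bases from the annotated start on the strand of the gene, with the longest run of C and T in capitals. They show the 6 genes that rose and have an entry, then the 2 members with the most counts, Rplp0 and Rpl3. Last is the paralogue Rps27l, which has a negative log2 fold change. Within the printed bases the longest run is only 3 in Rpl18 and in Rps27l. In the wider window counted above, 25 bases on each side, Rpl18 has CTTTC and Rps27l does not.
Rpl31, chr9:49143101-49143130, plus strand: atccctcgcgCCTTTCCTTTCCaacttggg
Rpl28, chr1:78083513-78083542, minus strand: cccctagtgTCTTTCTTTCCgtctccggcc
Rplp1, chr8:71290853-71290882, minus strand: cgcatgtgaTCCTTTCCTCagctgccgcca
Rpl18, chr1:105325260-105325289, plus strand: aCCTggtctagcaggaggcgccatcatggt
Rps21, chr3:187724028-187724057, plus strand: agccaCTTCCTTTCTgtgttctccgtagac
Rps2, chr10:14251838-14251867, plus strand: TCTTTTTCTTCgggaaaacacgtgagtctg
Rplp0, chr12:46718371-46718400, minus strand: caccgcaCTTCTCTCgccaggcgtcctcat
Rpl3, chr7:113507971-113508000, minus strand: gcctgctcgaTCTCTatcggcggcgtgtgg
Rps27l, chr8:76443648-76443677, plus strand: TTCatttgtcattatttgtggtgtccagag

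Members with and without the motif had similar medians. Among the 27 tested members with CTTTC near the start the median log2 fold change was 0.43 and 5 were called. Among the 30 without it the median was 0.42 and 1 was called, where 6.31% of all genes tested were called higher. No test was made of these values, since the same libraries stand behind all genes.

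The members with the most counts had smaller fold changes. Rplp0, the scaffold on which the stalk is built and a common reference gene, had 1122, 1195 and 1094 CPM in mock and 1283, 1625 and 1184 CPM in NRG1. The groups overlapped through NRG1 sample 3, and the log2 fold change of 0.25 ± 0.13 did not pass (edgeR adjusted p = 0.178). Rpl3, which lies close to the site of peptide bond formation, had 979, 1029 and 1020 CPM in mock and 1110, 1431 and 1089 CPM in NRG1. All NRG1 values were above mock, but with 0.25 ± 0.13 it did not pass either (edgeR adjusted p = 0.179). Together both genes held between 20.3 and 23.1% of the members' counts in each sample. Counts are not corrected for transcript length, so this share does not rank the mRNAs by number. Others among the 10 members with the highest mean CPM were Rpl4, a large subunit protein with a log2 fold change of 0.38 ± 0.15, and Rpl7 and Rps16 with 0.07 and 0.10. Rpsa, which is also known as the precursor of a laminin receptor, gave 0.45 ± 0.13 (edgeR adjusted p = 0.0261), and Rps3, a KH-domain protein at the mRNA entry site that also serves in DNA repair, 0.43 ± 0.13 (edgeR adjusted p = 0.033). Both were within the 29 members at an adjusted p of at most 0.05. Rpl7, Rps16, Rpl10 and Rps27 had log2 fold changes of 0.10 or less, and each turned negative when pair 2 was left out.

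**Figure D4:**
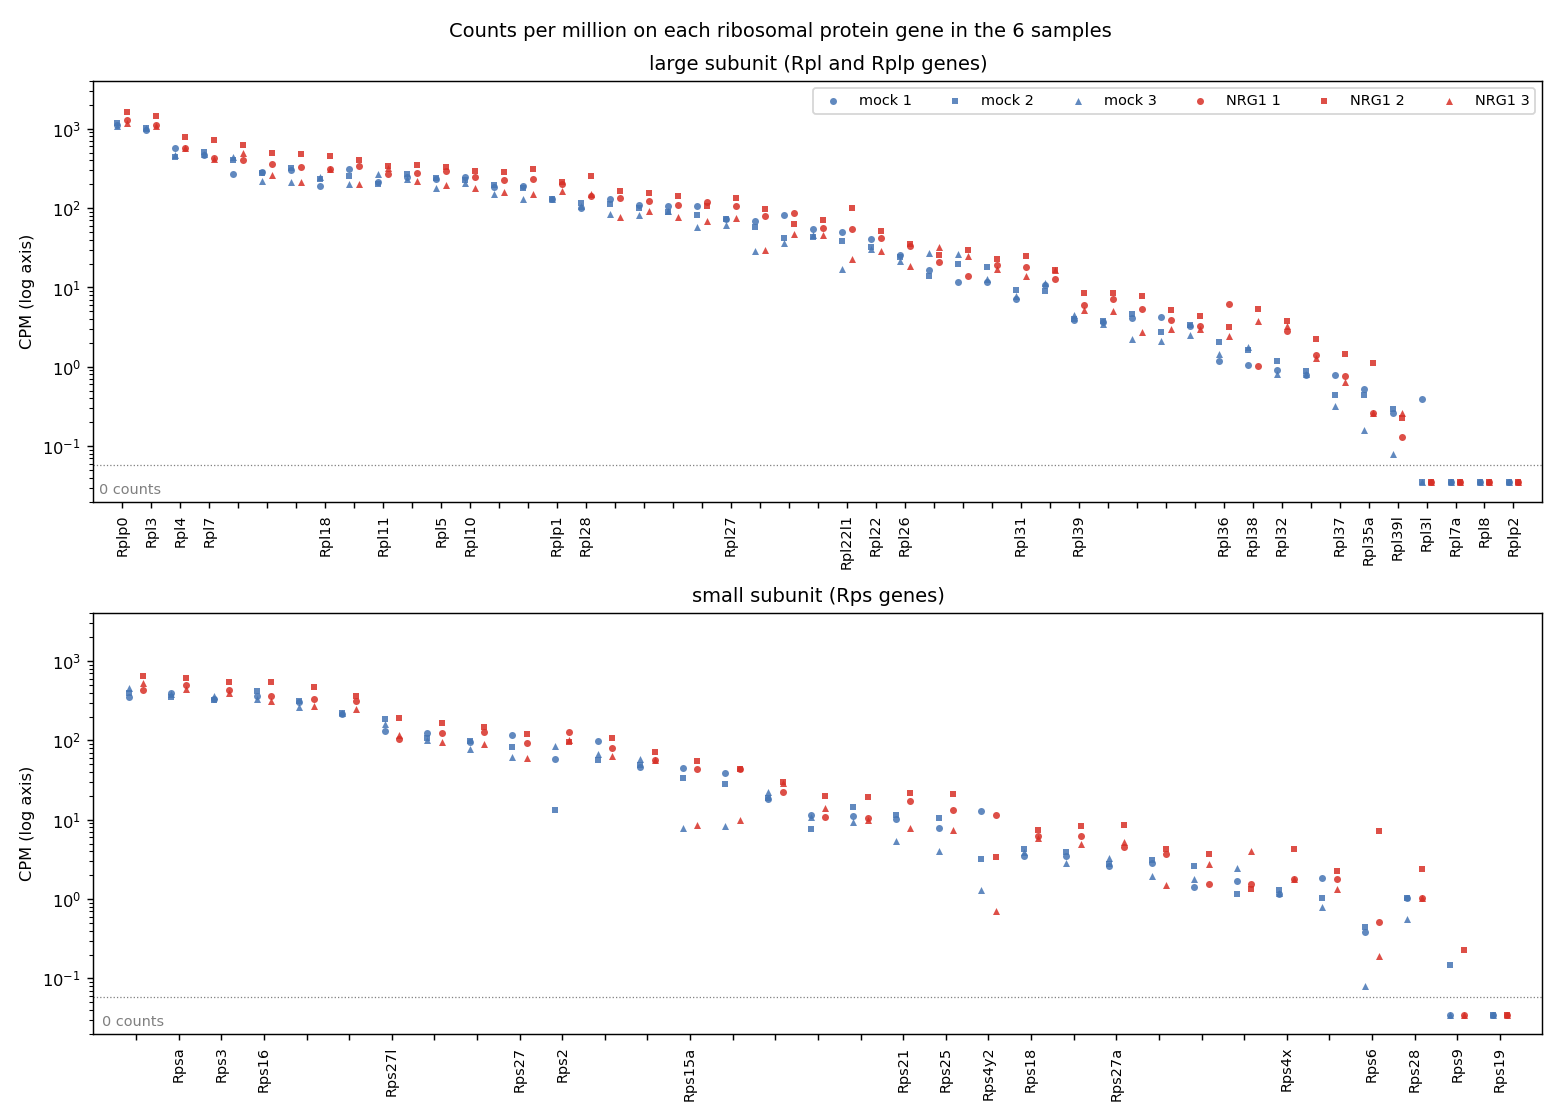
CPM of the 82 ribosomal protein genes in each of the 6 samples on a log axis, large subunit above and small subunit below, with genes at 0 counts drawn under the dotted line; CPM are not corrected for gene length, and only some genes are labelled. The values run from 0 in all samples for Rpl7a, Rpl8, Rplp2 and Rps19 to 1625 CPM for Rplp0 in NRG1 sample 2.

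Several members also act outside the ribosome or in its assembly. Rpl5 and Rpl11, which bind 5S ribosomal RNA and, when free, the p53 ligase Mdm2, had log2 fold changes of 0.31 ± 0.12 and 0.46 ± 0.13, with edgeR adjusted p of 0.0812 and 0.0186. Rps27a, which is made as a fusion with ubiquitin, had 2.60, 2.79 and 3.29 CPM in mock and 4.51, 8.70 and 5.23 CPM in NRG1. The groups did not overlap, and 1.02 ± 0.27 missed the threshold narrowly (edgeR adjusted p = 0.0134). Rpl36 and Rpl38, a large subunit protein and one needed for patterning of the mouse skeleton, had high but imprecise values. Rpl36 counted 9, 14 and 18 in mock and 48, 28 and 38 in NRG1, with a log2 fold change of 1.24 ± 0.36 (edgeR adjusted p = 0.0232). Rpl38 counted 8, 11 and 22 in mock and 8, 47 and 58 in NRG1, so pair 1 showed no rise, and its value was 1.11 ± 0.34 (edgeR adjusted p = 0.031). Rpl10, a protein added late to the large subunit, had 0.05 ± 0.13 (edgeR adjusted p = 0.82).

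The paralogues that could be tested differed in the sign of their fold change. Rpl22l1, a paralogue that can replace Rpl22, had 49.5, 39.0 and 16.9 CPM in mock and 54.8, 99.5 and 23.1 CPM in NRG1. It was higher in each pair with overlapping groups, at 0.66 ± 0.18 (edgeR adjusted p = 0.0192), while Rpl22 itself had 0.21 ± 0.15 (edgeR adjusted p = 0.346). Without pair 1, Rpl22l1 passed the threshold at 0.92. Rps27l, a paralogue of Rps27 known as a p53 target, had 132.4, 184.4 and 160.8 CPM in mock and 105.0, 193.9 and 116.0 CPM in NRG1. It was lower in 2 of 3 pairs, with the lowest log2 fold change of all members, -0.24 ± 0.13 (edgeR adjusted p = 0.191), and Rps27 stood at 0.05 ± 0.15. Rps4y2 was the other member below 0, at -0.23 ± 0.26 (edgeR adjusted p = 0.57), and its values depended on the culture: 12.9, 3.23 and 1.28 CPM in mock and 11.3, 3.39 and 0.711 CPM in NRG1. Its parent Rps4x had 0.98 ± 0.36 (edgeR adjusted p = 0.0611). Rpl39, the parent of Rpl39l, had 0.62 ± 0.24 (edgeR adjusted p = 0.0785). Rpl39l and Rpl3l, paralogues of the germ line and of muscle, had at most 4 and 3 counts in any sample.

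Several members varied more between the mock samples than with NRG1. Rps2, Rps4y2, Rpl22l1 and the small subunit gene Rps15a were among the most variable, but this was not confined to them. In Rpl29 the SD of log2(CPM + 1) over the mock samples was 0.65, beside a log2 fold change of 0.33. The values were 0.62 and 0.35 in Rpl17, and 0.56 and 0.23 in Rpl12. In other members, such as Rpl31 with 0.17 and 1.19, the fold change was the larger. Rps15a had 45.3, 33.3 and 7.87 CPM in mock and 43.1, 54.7 and 8.59 CPM in NRG1. Sample 3 was the lowest in either group, and the log2 fold change of 0.27 ± 0.16 did not pass (edgeR adjusted p = 0.25).

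For 11 members no comparison could be made. Rpl7a, Rpl8, Rplp2 and Rps19 had 0 counts in all 6 samples, although every growing cell needs these proteins, so 0 here is a count and not a measure of expression. A count of 0 allows up to 3 counts, which is 0.194 CPM in the largest and 0.440 CPM in the smallest library, and covers counting error only. Rpl35a, Rpl37, Rpl39l, Rpl3l, Rps28, Rps6 and Rps9 had some counts but too few. Rps6, the substrate of the S6 kinases downstream of mTORC1, had 3, 3 and 1 counts in mock and 4, 64 and 3 in NRG1, so that only NRG1 sample 2 held more than 4. The RefSeq annotation of GRCr8 lists numbered pseudogenes or gene-like copies for each of the 77 core members, between 1 and 36 with a median of 15, and 57 have at least 10. Rps2 has 36, Rpl31 22, Rpl7a 21, Rpl32 and Rps19 20 each, Rps9 17, Rplp0 15, Rps6 11, and Rpl3, Rpl8 and Rps28 6 each. The counting left alignments to several places unassigned, so reads shared with a copy are missing from these values, and values of single members are uncertain to that degree. Across the 77 genes the number of copies and the mean CPM had a Spearman correlation of -0.17, and across the 68 tested of them the number of copies and the log2 fold change one of 0.10. These describe genes that share the same libraries, and the part of the copies in the levels or changes was not tested.

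Proteins of the ribosome outside the symbol rule had positive but lower values. Their median log2 fold change was 0.28 over 4 genes tested, against 0.41 for the members. Fau, which encodes Rps30 as a fusion with a ubiquitin-like protein, had a log2 fold change of 0.33 ± 0.13. Gnb2l1, the scaffold protein Rack1 of the small subunit, had 0.39 ± 0.13, and Rpl36al 0.15. None of the 4 genes of this list that were tested passed the threshold. Of the proteins that chaperone ribosomal proteins or join them to the nascent subunits, 22 of 26 were tested, with a median of 0.39. None was down-regulated (against 5.51% of all genes), and 7 were up-regulated (31.8%, against 6.31%). They included Bysl at 1.07, a factor of small subunit maturation, Rpf2 at 0.94, which loads the 5S particle, Grwd1 at 0.79, a chaperone of Rpl3, and the import receptor Kpnb1 at 0.82. Other mRNAs of the TOP class, those of translation factors and their kin, had 23 of 27 tested and a median of 0.32. Here 0 were down-regulated (against 5.51%) and 2 up-regulated (8.7%, against 6.31%), a share near the background. The 2 were Npm1, a nucleolar chaperone, at 0.68 and the elongation factor subunit Eef1g at 0.52.

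Nucleolar factors of ribosome production had a higher median than the ribosomal proteins. Of 68 such genes 61 were tested, with a median log2 fold change of 0.57 and 61 of 61 positive. Up-regulated were 33 (54.1%, against 6.31% of all genes) and down-regulated 0 (against 5.51%). Fbl, the methyltransferase of ribosomal RNA, had 1.56, and Nop2, Bop1 and Wdr46, factors of subunit maturation, had 1.32, 1.26 and 1.25. The study had already named these genes, others of this list and Bysl above as up-regulated in the same libraries. The median and the calls are therefore not independent of how the genes were known. Npm1 is on both this list and that of the TOP mRNAs. Of 28 regulators of ribosomal protein synthesis and transcription, 26 were tested, with a median of 0.16. Down-regulated were 0 (against 5.51%) and up-regulated 4 (15.4%, against 6.31%). The 4 were Mycn at 0.98 and Myc at 0.72, transcription factors that act on ribosome genes, the cap-binding protein Eif4e at 0.79 and the S6 kinase of the RSK family Rps6ka1 at 0.51. Mitochondrial ribosomal proteins, which serve a separate ribosome, had 66 of 69 tested and a median of 0.23. Down-regulated were 0 (against 5.51%) and up-regulated 9 (13.6%, against 6.31%), led by Mrpl12 at 0.94 and Mrpl38 at 0.88. The difference between these lists was not tested.

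**Figure D5:**
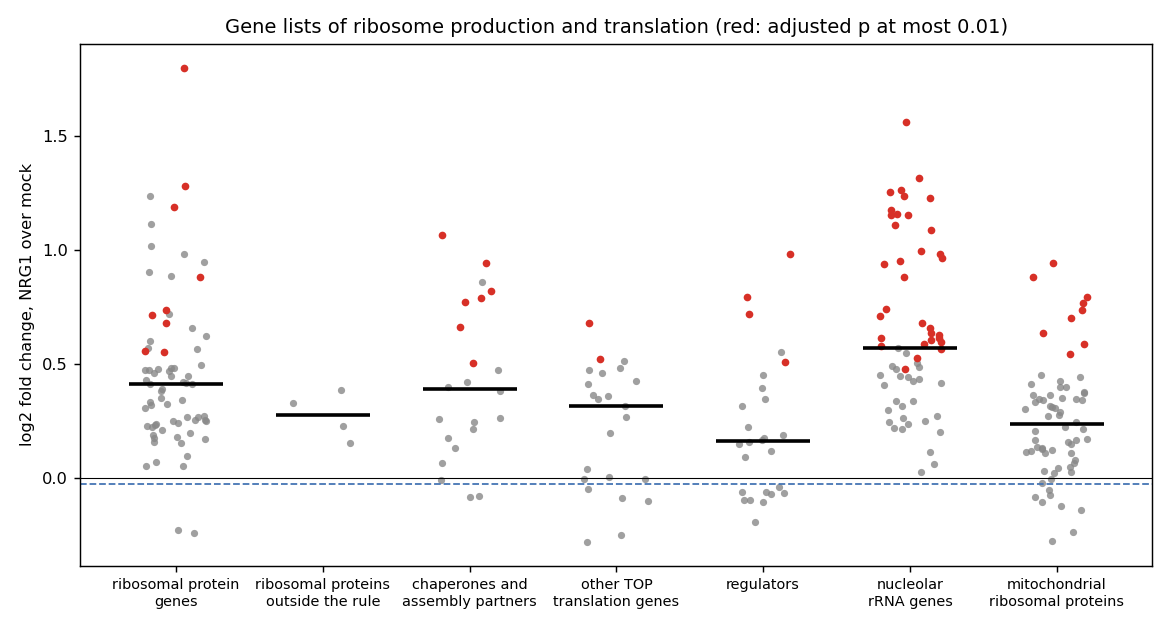
Log2 fold change of NRG1 over mock for each tested gene of the cytosolic ribosomal proteins and of 6 related lists, with genes past an adjusted p of 0.01 in red; the dashed line is the median of all genes tested, -0.03. The ribosomal protein genes centre on 0.41, the nucleolar factors on 0.57 and the mitochondrial ribosomal proteins on 0.23.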

How the data were processed

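RNA of 3 mock and 3 NRG1 cultures (poly(A) selection, RIN of at least 9) was sequenced by the authors, mapped with TopHat 2.0.10 to rn5 and counted per RefSeq gene with htseq; the htseq version and strand setting are not given in the sources used here. The deposited files hold raw counts for each gene, and the htseq summary lines, which name no gene and hold 50.1 to 53.0% of the entries, were kept out of library sizes and tests. Groups and replicate numbers were taken from the labels. Genes were filtered with filterByExpr (minimum count 10) and tested with the quasi-likelihood test of edgeR 4.0.16 in R 4.3.3 (TMM, replicate number as a block, Benjamini-Hochberg over 9740 genes), which was checked on simulated data; a gene was called at an adjusted p of at most 0.01. The samples were paired by experiment, and the deviations of same-numbered samples from their group means correlated across genes at 0.91, 0.67 and 0.81, against -0.80 to 0.51 for different numbers. CPM use all gene counts of a library. Pair ratios use TMM-scaled log2 CPM with a prior count of 2, and standard errors are the log2 fold change over the square root of F. Libraries held 6821590 to 15475018 gene counts, and 3 counts are 0.194 to 0.440 CPM.

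The members and the gene lists were chosen with earlier results of these data known. Named were the called members, the 10 with the highest mean CPM, the 5 highest and 5 lowest in log2 fold change, the 5 most variable in mock, and members fixed by role or as paralogues. Alternatives were the fit without the block, DESeq2 1.42.0, other normalizations, filters, thresholds, denominators and the removal of each replicate. Promoter sequences came from RefSeq GRCr8; rn5 coordinates and gene lengths were not used here. Single values of a few named members, and of a marker gene, are not reported here.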

Additional observations from a re-analysis of the deposited data

How the results depend on the processing

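The number of up-regulated members was 9 with the replicate block (12.7%, against 6.31% of all genes). It was 0 without the replicate block, where 0 of all 9740 genes were called. It was 19 without the filter on low counts (24.4%, against 6.46% of all genes). At an adjusted p of at most 0.05 it was 29 (40.8%, against 11.5%). Adding a log2 fold change over 1 gave 3 (4.23%, against 1.56%). Members with a mean count of at least 1000, a limit chosen after seeing the data, also gave 3 (10.7%, against 10.1%). Leaving out one replicate gave 4 to 10 (5.56 to 13.9%, against 4.02 to 5.94%). DESeq2 and other normalizations gave 8 or 9 (11.3 to 12.7%, against 5.77 to 6.83%). With 10 counts in every sample, 10 of 64 members were called (15.6%, against 6.81%). A mean count of at least 100 gave 7. Of all genes, 10.1% were called higher at a mean count of at least 1000 and 6.38% between 100 and 1000. The number of down-regulated members was 0 under every alternative run. The median log2 fold change of the members lay between 0.27 (without replicate 2) and 0.49 (without replicate 3). Without replicate 2, 9 members turned negative. Named in the text are Rpl7, Rps16, Rpl10, Rps27 and Rpl22, beside Rpl36al outside the symbol rule. Leaving out one replicate, log2 fold changes of these 6 ranged from -0.12 to 0.21, from -0.016 to 0.21, from -0.11 to 0.21, from -0.19 to 0.26, from -0.0056 to 0.38 and from -0.19 to 0.41 in that order. Rpl18, Rpl28 and Rpl31 were called in every fit with the block. With 3 pairs, precision is limited, and genes under 100 counts have a median standard error of 0.28. Reads shared with copies are not in the counts.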
